A study of Mus musculus with 2 samples.

Results

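The gastrocnemius, the large calf muscle, was examined for 9 microRNA genes that are best known from other tissues: 7 of epithelium, 1 of liver and 1 of pancreatic islet. The members are Mir200a, Mir200b, Mir429, Mir200c, Mir141, Mir203 and Mir205 (epithelium), Mir122 (liver) and Mir375 (islet). They were chosen by name, with earlier results of these data known, and no limit on counts was set. Matching the gene identifiers to GENCODE M21 found all 9 among the 2202 microRNA genes counted. Both libraries are small RNA from total RNA of the muscle of male B6CASTF1/J mice, a cross of C57BL/6J with the wild-derived CAST strain, aged 36 days, with no treatment or other group in the labels. The libraries, replicates 1 and 2, are labelled as biological replicates from separately numbered males under the same donor identifier, and there was no other condition to compare with. Reads on the strand of a microRNA gene numbered 4134880 for replicate 1 and 3219740 for replicate 2. Levels are given as counts and as CPM, a gene's count per 1000000 such reads.

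MicroRNAs are cut from hairpin transcripts, and the mature strand, loaded into an Argonaute protein, pairs with target mRNAs mainly through its seed, bases 2 to 8. The miR-200 family keeps epithelial cells epithelial by repressing Zeb1 and Zeb2, transcription factors that silence E-cadherin. miR-203 and miR-205 are known from skin and other stratified epithelia, miR-122 is the leading microRNA of hepatocytes, and miR-375 is abundant in islet endocrine cells. None of the 9 is a classical microRNA of muscle fibres, and their counts are given here with exact limits as a measure of non-muscle tissue in the samples. In a bulk sample, fewer cells of a type and less RNA per cell cannot be told apart.

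The mature sequences below show why the 5 miR-200 genes are treated as 1 family with 2 seed groups, and why reads of its members can be counted apart. They are the RefSeq entries of build GRCm38.p6, written 5′ to 3′ with the seed in capitals. Mir122 and the 3p strand of Mir375 are named only.
miR-200b-3p: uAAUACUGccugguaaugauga
miR-200c-3p: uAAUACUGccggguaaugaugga
miR-429-3p: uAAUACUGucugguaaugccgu
miR-200a-3p: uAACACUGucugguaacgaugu
miR-141-3p: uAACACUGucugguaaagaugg
miR-203-3p: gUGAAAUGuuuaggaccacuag
miR-205-5p: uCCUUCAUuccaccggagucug

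Mir200b, Mir200c and Mir429 share the seed AAUACUG, and Mir200a and Mir141 share AACACUG. Between miR-200a-3p and miR-200b-3p the seeds differ by C4U, counted from 1 at the 5′ end, with the base of miR-200a-3p first. Outside the seed the strands are less alike. Over 22 bases miR-200b-3p differs from miR-200c-3p at 2 positions and from miR-429-3p at 4, and miR-200a-3p differs from miR-141-3p at 2. The seeds of miR-203-3p and miR-205-5p belong to no other gene of the RefSeq table. No member shares a stretch of 20 bases with any other of the 2202 annotated hairpins, whereas 1133 hairpins do share such a stretch. Among 15 mature sequences of the members, miR-203-5p alone was found in another hairpin, that of miR-203b (Gm51289) on the opposite strand of the same locus. Most reads of each library, 70.4% in replicate 1 and 73.3% in replicate 2, aligned to several loci and are listed apart from the genes. Matches elsewhere in the genome were not examined.

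The miR-200 genes lie in 2 clusters on minus strands of mm10. Mir429 (ENSMUSG00000065427.1, 156053905 to 156053987), Mir200a (ENSMUSG00000065400.1, 156054896 to 156054985) and Mir200b (ENSMUSG00000065549.3, 156055681 to 156055750) span 1846 bases of chromosome 4, in introns of the protein-coding gene Ttll10. Mir429 also overlaps an exon of the noncoding transcript Gm13648. Mir141 (ENSMUSG00000065474.1, 124717914 to 124717985) and Mir200c (ENSMUSG00000065462.3, 124718322 to 124718390) span 477 bases of chromosome 6, in an intron of the noncoding gene Gm15884, with Phb2 and Ptpn6 as the nearest protein-coding genes. Mir203 (ENSMUSG00000065574.1; chromosome 12, 112130880 to 112130955, plus strand) lies between genes, 3321 bases from Aspg. Mir205 (ENSMUSG00000065533.1; chromosome 1, 193507463 to 193507530, minus strand) overlaps an exon of 4631405K08Rik, a long noncoding RNA. Mir375 (ENSMUSG00000065616.3; chromosome 1, 74900658 to 74900721, minus strand) lies between genes, 1350 bases from Cfap65.

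All 9 members were counted in both libraries, but only Mir203, Mir122 and Mir200c had 10 or more counts in each. Together the members had 1074 counts in replicate 1 and 715 in replicate 2. Their share of counted reads was 0.0260% in the former library, with a 95% exact Clopper-Pearson interval of 0.0244 to 0.0276, against 0.0222% (0.0206 to 0.0239) in the latter. Mir203 supplied 84.5% and 93.4% of these counts. The other 8 members had 166 counts, or 0.00401% (0.00343 to 0.00467), in replicate 1 and 47 counts, or 0.00146% (0.00107 to 0.00194), in replicate 2. All intervals here cover counting error only, not variation between animals, and treat reads as independent. Copies made by PCR are not independent molecules, so the true limits can be wider.

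As a check of the labelled tissue, the muscle microRNA Mir206 had 106820 counts in replicate 1 and 92373 in replicate 2. Mir486 had 3363 and 3057, and Mir1a-2 had 1301 and 1117. The red cell microRNA Mir451a was counted too, at 1286 and 999, and whether red cells add to the counts of Mir486 was not tested. Reads that align to several loci are missing from these counts. Genes with numbered copies, such as Mir1a-1 and Mir1a-2, can therefore read low, which was not tested. The same holds for copies in the lists below. All 9 genes of the skeletal muscle list had at least 10 counts in both libraries. Mir206 alone was counted 99.5 times as often as all 9 members together in replicate 1 and 129 times as often in replicate 2. Against the 8 members without Mir203 the factor was 643 and 1965. Counts were not divided by gene length, because the 15 mature strands that RefSeq held for 8 of the members are 21 to 23 bases long.

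**Figure D1:**
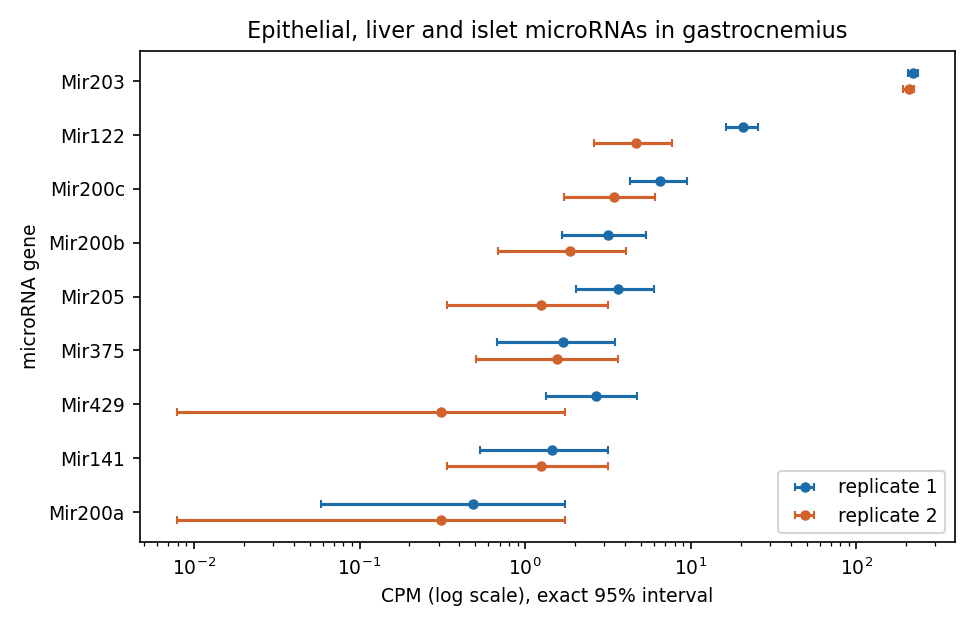
Level of each member in CPM on a log axis, with blue points for replicate 1 and orange points for replicate 2, and bars for the exact Clopper-Pearson 95% interval of each library's share. Mir203 stands at 220 and 207 CPM, well above the other 8, and the libraries' bars are apart for Mir122 alone.

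The epithelial microRNAs were led by Mir203, which in skin represses the stem cell factor p63. It had 908 counts in replicate 1 (exact Poisson 95% interval 850 to 969) and 668 in replicate 2 (618 to 721), or 220 and 207 CPM. Its mean of 214 ± 8.57 CPM (SD, n = 2) put it in place 123 of the 639 genes with a count in either library. Reads that align to several loci are in neither the counts nor their total, so genes with copies can stand too low in this order. The CPM, the places and the median level below therefore hold for counted reads only. The libraries lay close together for Mir203, and its level was far from the other epithelial members.

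Mir205, known from basal epithelial cells, had 15 counts in replicate 1 (8.40 to 24.7) and 4 in replicate 2 (1.09 to 10.2). Its mean was 2.44 ± 1.69 CPM (n = 2), in place 317. Mir203 and Mir205, both known from stratified epithelium, thus stood apart by far more than their counting intervals in each library.

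Within the miR-200 family, Mir200c was the most abundant in both libraries, with 27 counts in replicate 1 (17.8 to 39.3) and 11 in replicate 2 (5.49 to 19.7). Mir141, its neighbour in the chromosome 6 cluster, had 6 (2.20 to 13.1) and 4 (1.09 to 10.2). Mir200c exceeded Mir141 4.50-fold in replicate 1 (exact conditional 95% interval 1.82 to 13.3) and 2.75-fold in replicate 2 (0.815 to 11.8). The order was the same in both libraries, and the interval of replicate 2 includes equal levels.

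In the chromosome 4 cluster, Mir200b had 13 counts (6.92 to 22.2) in replicate 1 and 6 (2.20 to 13.1) in replicate 2. Mir429 had 11 (5.49 to 19.7) and 1 (0.0253 to 5.57). Mir200a had 2 (0.242 to 7.22) and 1 (0.0253 to 5.57), the lowest mean level of the 9 members. Mir200b exceeded Mir200a 6.5-fold in replicate 1 (interval 1.47 to 59.3) and 6-fold in replicate 2 (0.728 to 276). Mir200b and Mir429 were close in replicate 1, with a ratio of 1.18 (0.489 to 2.91), and in replicate 2 the counts of 6 and 1 also left a ratio of 1 inside the interval (0.728 to 276).

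Summed by seed, the group with AAUACUG had 51 counts in replicate 1 and 18 in replicate 2, and the group with AACACUG had 8 and 5. The order of the seed groups was the same in both animals. The whole family had 59 counts in replicate 1, or 14.3 CPM (10.9 to 18.4), and 23 in replicate 2, or 7.14 CPM (4.53 to 10.7).

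Mir122 (ENSMUSG00000065402.1; chromosome 18, 65248861 to 65248926, plus strand), the hepatocyte microRNA, overlaps an exon of AC157910.3, a long noncoding RNA. It had 85 counts in replicate 1 (67.9 to 105) and 15 in replicate 2 (8.40 to 24.7), or 20.6 CPM (16.4 to 25.4) and 4.66 CPM (2.61 to 7.68). Its mean of 12.6 ± 11.2 CPM (n = 2) put it in place 253, and its SD was nearly as large as its mean.

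Mir375, which restrains insulin secretion in beta cells, had 7 counts in replicate 1 (2.81 to 14.4) and 5 in replicate 2 (1.62 to 11.7). That is 1.69 CPM (0.681 to 3.49) and 1.55 CPM (0.504 to 3.62), with a mean of 1.62 ± 0.0990 CPM (n = 2). The libraries were alike in level, but with so few reads a 3-fold difference in either direction would lie inside the interval of their ratio (log2 scale −1.96 to 1.91).

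By mean CPM the order was Mir203, Mir122, Mir200c, Mir200b, Mir205, Mir375, Mir429, Mir141 and Mir200a. Mir203 exceeded Mir122 in both libraries beyond counting error, 10.7-fold in replicate 1 (8.55 to 13.5) and 44.5-fold in replicate 2 (26.8 to 80.0). Mir122 exceeded Mir200c 3.15-fold in replicate 1 (2.02 to 5.05), but in replicate 2 their ratio of 1.36 had an interval of 0.585 to 3.28. Mir200c and Mir200b were likewise apart in replicate 1 alone, with ratios of 2.08 (1.04 to 4.38) and 1.83 (0.621 to 6.04). From Mir200b downward, neighbours in the order had intervals that include equal levels in both libraries, so their order is not fixed by these counts. The median level of the 639 genes with a count was 2.37 CPM, and 5 members, Mir203 to Mir205, were above it.

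**Figure D2:**
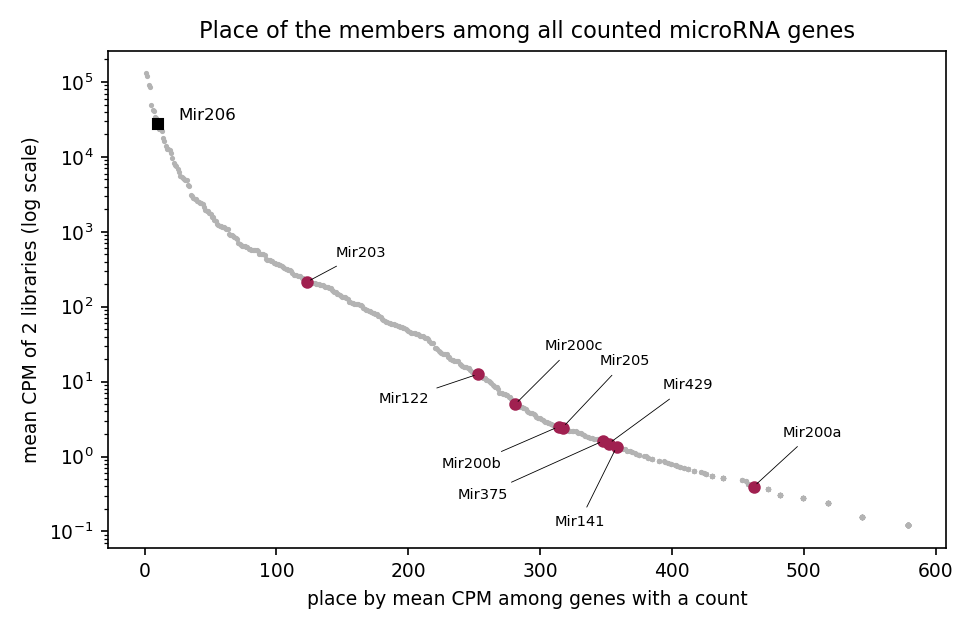
Mean CPM of 2 libraries on a log axis against place in the order of mean CPM, for the 639 genes with a count in either library (grey), with the members in red and the muscle microRNA Mir206 as a black square. Mir203 lies in place 123, Mir122 in place 253 and Mir200a in place 462, against place 10 for Mir206.

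The strand of the reads was examined next, because reads from the opposite strand of a hairpin are not its microRNA. For 6 members every read lay on the gene's strand. Mir203 had 4 reads on the opposite strand in replicate 1 and 3 in replicate 2, beside 908 and 668 on its own, and Mir122 had 1 and 4 beside 85 and 15. Mir200a was the exception, with 10 opposite-strand reads in replicate 1 and 3 in replicate 2 beside 2 and 1 on its own strand. Of 337 genes that overlap no opposite-strand microRNA gene of GENCODE M21, which does not hold miR-203b, and had at least 10 reads over both strands and libraries, 1 (0.297%) had more reads on the opposite strand, and it was Mir200a. All 9 members were among these 337. GENCODE M21 places no gene on the opposite strand there. In the column that ignores strand Mir200a therefore reads 12 and 4, so most of its signal in that column was not from the strand of miR-200a.

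The libraries were then compared with each other, as a description of 2 animals with no replicate check. The log2 ratio of replicate 2 over replicate 1 was taken of count + 0.5 with TMM scaling, for the 362 genes with at least 10 counts over both libraries, and a gene was called when past 2-fold. Mir200a, with 3 counts, was not tested, which left 8 members. Mir429, Mir122 and Mir205 were called lower in replicate 2 and no member was called higher. Over all 362 genes, 34 (9.39%) were called lower and 16 (4.42%) higher, or 40 and 8 with scaling to the total count. Calls are more frequent at low counts: of 140 genes with fewer than 200 counts, 25 (17.9%) were called lower, a range set after the counts were seen to hold the 7 tested members other than Mir203. The median log2 ratio was −0.63 for the 8 members and −0.05 for all 362 genes.

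Mir122 was 3.83-fold lower in replicate 2, a log2 ratio of −1.94 with an exact interval of −2.87 to −1.17 for counting error. It was the 8th lowest ratio of the 362. Mir429 was 5.32-fold lower (log2 ratio −2.41, −8.36 to −0.15), from 11 counts and 1. For these 2 of 8 members the interval lay wholly below equality, as it did for 101 (27.9%) of the 362 genes, a share close to that of the members. It lay wholly above for no member and for 70 (19.3%) of the genes. Mir205 was 2.39-fold lower (log2 ratio −1.26), but its interval of −3.43 to 0.27 includes equality, and with log2(CPM + 1) it was not called (−0.93).

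The other miR-200 genes were not past 2-fold. Mir200c had a log2 ratio of −0.73 (−1.93 to 0.29), Mir200b −0.53 (−2.27 to 0.91) and Mir141 −0.003 (−2.33 to 2.02), the last at 0.05 with DESeq2 size factors. The 5 genes summed gave −0.81 (−1.59 to −0.11). The signs of Mir203 at 0.09 (−0.06 to 0.23) and Mir375 at 0.08 (−1.96 to 1.91) depended on the scaling, with −0.08 and −0.09 when scaled to the total count. Scaling to the total count lowers every log2 ratio by 0.17 against TMM.

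**Figure D3:**
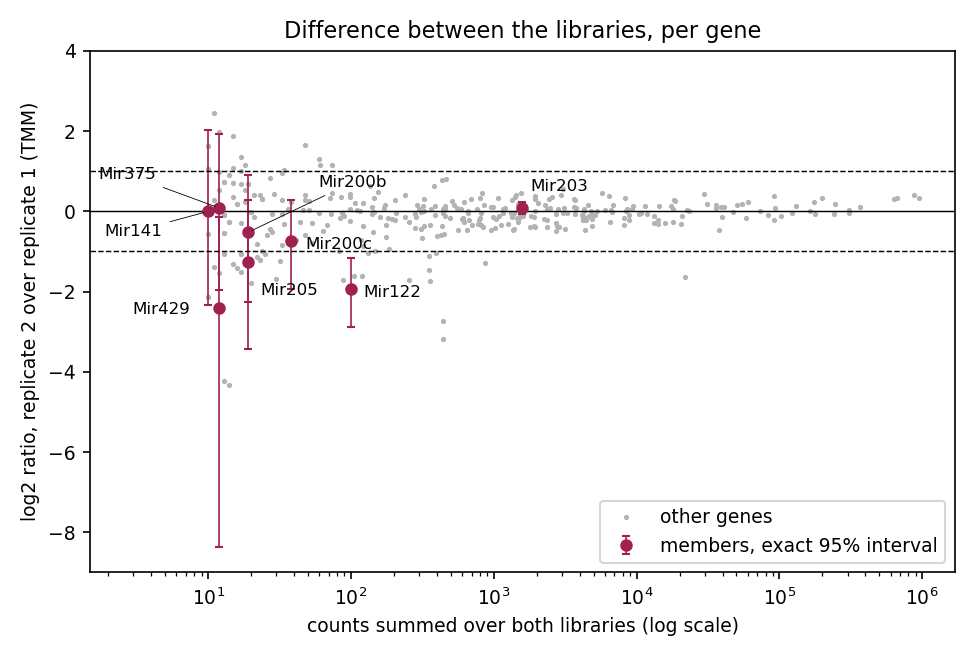
Log2 ratio of replicate 2 over replicate 1 (TMM) against summed counts on a log axis, for 362 genes (grey) with the 8 tested members in red and bars for the exact 95% interval. Dashed lines mark 2-fold, which Mir429, Mir122 and Mir205 pass on the lower side, while Mir203 lies at 0.09.

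The genes nearest to the members in this ratio were found among the 295 genes with at least 10 counts in each library. Likeness here is the difference of 1 log2 ratio over 2 libraries and so says little. Nearest to Mir122 were Mir3107 (295 and 61 counts, log2 ratio −1.74), Mir137 (211 and 44, −1.72) and Mir363 (73 and 15, −1.72), at differences of 0.20 to 0.22. Nearest to Mir203 were mmu-mir-3535, Mir362 and Mir92-1, with log2 ratios of 0.09, 0.09 and 0.08. Nearest to Mir200c were Mir33, Mir669c and Mir8112, with −0.71, −0.71 and −0.68.

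Other microRNAs of the same tissues were read beside the members. In the list of liver, kidney and gut microRNAs, Mir194-2 had 174 counts in replicate 1 and 150 in replicate 2, and its partner in a shared cluster, Mir192, had 111 and 94. Mir215 had 4 and 3, Mir194-1 had 2 and 0, and Mir802, known from liver, had 0 in both. With 3 counts as a 1-sided limit, that 0 allows up to 0.726 CPM in replicate 1 and 0.932 in replicate 2. The list summed to 70.4 and 76.7 CPM, a log2 ratio of 0.29 (0.04 to 0.54), or 0.12 when scaled to the total count. This interval and that of Mir122 (−2.87 to −1.17) do not overlap.

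In the pancreas list, the acinar microRNA Mir217 went from 25 counts to 7 between the replicates and Mir216a, from the same cells, from 5 to 2, while Mir216c had 0 in both. Mir7-1, found in endocrine cells and hosted by the widely active Hnrnpk, had 192 and 134, and Mir7b had 16 and 6. Mir375, at 7 and 5, thus had fewer counts than Mir217 and Mir7b in replicate 1 and was near them in replicate 2. No interval was taken for these differences. The list had a log2 ratio of −0.16 (−0.46 to 0.14), and Mir7-1, at 0.01, supplied most of its counts. Mir217 was called lower (−1.24, −2.76 to −0.06), as were 9.39% of all 362 genes. Mir7b was at −0.82 (−2.53 to 0.54).

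Among other epithelial microRNAs, Mir184, of cornea and epidermis, had 295 and 99 counts, Mir31, of keratinocytes, had 266 and 85, and Mir34c, of ciliated cells, had 265 and 190. Mir31 is also known from muscle satellite cells, so its counts cannot be assigned to epithelium alone. Mir449b had 0 in both. The list had a log2 ratio of −0.54 (−0.71 to −0.37), and 3 of its genes were called lower: Mir184 (−1.04), Mir31 (−1.11) and, from 10 counts and 2, Mir34b (−1.54), whose interval includes equality. Over all 362 genes 9.39% were called lower. Mir34c was at 0.05, or −0.12 when scaled to the total count, and Mir449a, also of ciliated cells, was at 0.20 with 68 and 54 counts.

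Lists of other cell types differed between the libraries as well, and their part in the results above was not tested. The neuron and glia list, led by Mir338 at 17718 and 3980 counts, with Mir219a-2 (38 and 15) and Mir219a-1 (13 and 11) next, had a log2 ratio of −1.62, while its 6 other members, 3 copies each of Mir124a and Mir9, had 0 in both. The copies of Mir9 share their mature strands in RefSeq, so reads that align to several loci would be missing there, and a 0 does not show absence. The Mir183 cluster (Mir183, Mir182 and Mir96), known from sensory neurons and also found in epithelia, had 829 and 77 counts in all (log2 ratio −2.89). The lists of skeletal muscle (0.32), endothelium (0.33, Mir126a) and smooth muscle (0.30, Mir143 and Mir145a) had ratios above 0. Mir206 supplied most counts of the muscle list and Mir143 most of the smooth muscle list. Of the 9 muscle genes, Mir133a-1 alone was below 0, at −0.16 (−0.61 to 0.28). The leukocyte list was at 0.21, or 0.04 when scaled to the total count, and its genes were not alike: Mir155 was at 0.46 and Mir150 at 0.28, while Mir223 was at −0.37 (−0.49 to −0.26). Red cells, by Mir451a and Mir144, were at 0.13, or −0.04 when scaled to the total count. Beside these lists, Mir122 was lower in replicate 2 beyond counting error and the interval of Mir203 includes equality. The lower sum of the miR-200 family is not shown for each gene, since of its 4 tested genes only Mir429 had an interval wholly below equality.

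**Figure D4:**
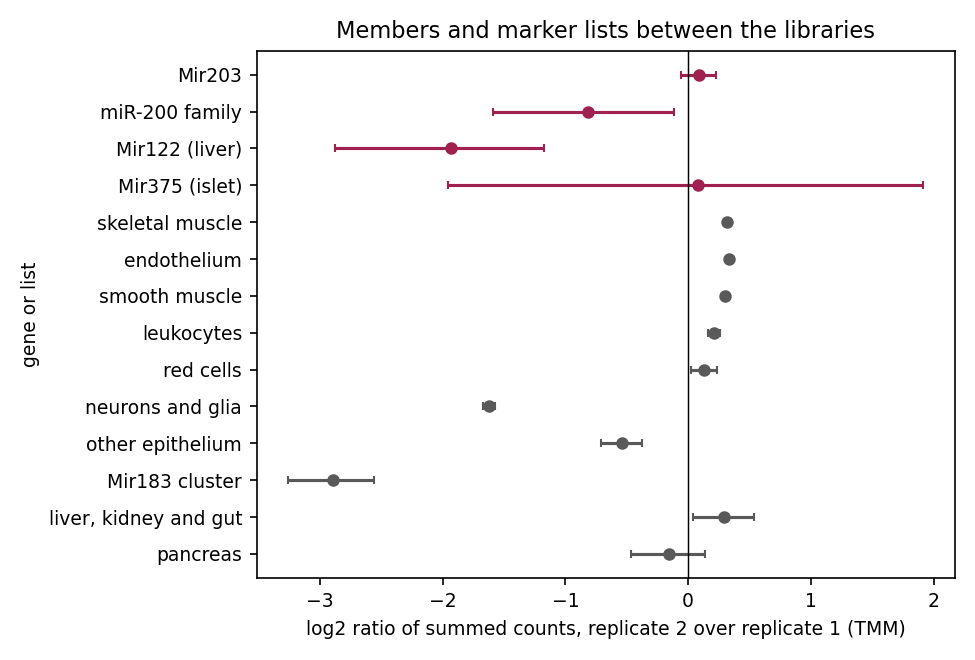
Log2 ratio of summed counts, replicate 2 over replicate 1 (TMM), for Mir203, the miR-200 family, Mir122 and Mir375 (red) and for 10 marker lists (grey), with bars for the exact 95% interval of counting error. Mir122 at −1.94 and the miR-200 family at −0.81 lie on the lower side. So do the Mir183 cluster at −2.89, neurons and glia at −1.62 and other epithelium at −0.54. The muscle, endothelium and smooth muscle lists lie between 0.30 and 0.33.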

How the data were processed

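The authors deposited, per library, whole-number read counts for 2202 microRNA genes in 3 columns (ignoring strand, on the gene's strand, on the opposite strand), with assembly mm10 and annotation GENCODE M21 per the deposited file descriptions. The files have no header, and which column holds which strand was read from the values. For aligner, adapter trimming and counter, nothing is given in the sources used here. Library sizes excluded the 4 entries for unmapped, multimapped, unassigned and ambiguous reads (unmapped 7.05% and 6.02%, multimapped 70.4% and 73.3%, no feature 1.63% and 1.51% of all reads). Of all reads, 20.96% and 19.2% were counted on the gene's strand, the column used. CPM used the total of counted reads. Count intervals are exact Poisson, shares exact Clopper-Pearson and ratios exact conditional 95% intervals (SciPy 1.17.1). A count of 0 was taken to allow 3 counts, a 1-sided 95% limit, which is lower than the upper end of a 2-sided interval. TMM factors (1.06 and 0.944) came from edgeR 4.0.16, and size factors from DESeq2 1.42.0 served as an alternative. The ratio and its interval were tested on simulated Poisson counts scaled to the total count. That test does not cover TMM scaling or variation between animals. As all libraries form 1 group, no conditions were tested and no p-value is given. With 2 libraries, an SD mixes animal-to-animal and technical variation.

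The members and lists were chosen with earlier results of these data known. Genes were named if they were members, among the 3 highest of a list, at 0 in both libraries, or among the 3 nearest in ratio to a member with 10 counts in both. Other genes of short lists were named after their values were seen. Alternatives were the strand column, the scaling, the denominator, pseudocounts, minimum counts, leaving out Mir203 and leaving out each replicate. Matches of mature sequences across the genome and CAST alleles are not analysed here; CAST alleles that differ from mm10 can lower a count. Gene symbols and positions are from GENCODE M21, mature sequences from RefSeq (GRCm38.p6), which held 8 of the 9 members.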

Additional observations from a re-analysis of the deposited data

Results flagged for a closer look

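Reads on the strand opposite to a member, which the levels above do not use, exceeded the 3 counts that a count of 0 allows in 3 cases. They were 10 reads opposite Mir200a in replicate 1, 4 opposite Mir203 in replicate 1 and 4 opposite Mir122 in replicate 2. Only for Mir200a were they more than the reads on the gene's own strand, and what they come from was not tested.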

How the results depend on the processing

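The summed share of all 9 members was 0.0241% and became 0.0325% in the column that ignores strand, 0.00485% with all reads as denominator, 0.0277% without the most abundant gene and 0.00274% without Mir203. For epithelium, 0.0227% became 0.0305%, 0.00456%, 0.0261% and 0.00131% in the same order. For islet, 0.000162% became 0.000216%, 3.27e-05% and 0.000187% under the first 3. These follow from the change of denominator or member set. The liver share, 0.00126%, became 0.00176%, 0.00026% and 0.00144% under the first 3, all within 1 SD only because its SD of 0.00112% is nearly as large as its mean. Without replicate 1 or replicate 2 the number of members with at least 10 counts was 3 or 6, against 3 in both, and the liver share was 0.000466% or 0.00206%, so replicate 1 sets most of the level of Mir122. With a mean of at least 10 CPM required, 2 members were tested and 1, Mir122, was past 2-fold, against 3 of 8. All genes past 2-fold numbered 14 lower and 1 higher with that minimum, 22 and 7 with log2(CPM + 1), and 151 and 94 with no minimum, against 34 and 16. Mir122 and Mir429 were called lower under each alternative that tested them, and Mir205 under each but log2(CPM + 1). Of 50 alternative log2 ratios of single members, 49 stayed within the counting interval, the exception being Mir203 scaled to the total count. Of 54 alternative mean levels, 11 moved by more than 1 SD, 7 with all reads as denominator and 4 in the column that ignores strand, where Mir200a went from 0.397 to 2.74 CPM. The ratio between libraries cannot be had without either replicate. Counting limits most members: for the 7 with fewer counts than Mir122 in replicate 1, the ends of the count interval are more than 2-fold apart.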
